A study of Mus musculus with 35 samples.

Results

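Gene expression by 3′ end RNA sequencing in mouse interscapular brown adipose tissue (iBAT) after 1 day of cold was compared with that after 6 hours of cold, using the 10 libraries of those groups, 5 mice each, out of 35 libraries in the time course. Every gene that passed a filter on low counts was tested in these 10 libraries, and the room temperature controls took no part in the test. All mice were male C57BL/6J animals aged 9 to 10 weeks, and the labels name no genetic change or drug in any group. Cold meant an incubator at 6 °C, in which each mouse lived alone and had no nest, so the groups compared shared that housing and differed by the length of the stay. Control mice remained in the colony at 24 °C, and their levels, like those after 2 to 5 days, are given below only as a description. Fold changes are written as 1 day against 6 hours on the log2 scale, with their standard error (SE). A gene is called changed where the adjusted p of edgeR's quasi-likelihood test is below 0.05. Levels are CPM, counts scaled by library size after TMM normalization over all 35 libraries. The kit reads the 3′ end of each transcript, so that a longer transcript does not give more reads.

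Brown adipocytes burn fatty acids and glucose to make heat, chiefly through uncoupling protein 1 (UCP1) in the inner mitochondrial membrane. In the cold, noradrenaline from sympathetic nerves acts on β-adrenergic receptors, cyclic AMP rises, and protein kinase A both releases fatty acids from lipid droplets and switches on target genes within hours. When the cold continues, lipid stores are refilled by uptake and by synthesis from glucose, and many of the early transcripts decline.

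Each of the 10 libraries held between 3846016 and 6047247 counts, so that 1 read was worth 0.165 to 0.26 CPM. Mitochondrial genes took 39.6% to 46.2% of the counts. Replicates of a group correlated at r = 0.957 to 0.968 after 6 hours and 0.946 to 0.975 after 1 day on the log2 CPM scale, and the counts of every pair differed by more than sampling noise. The first principal component, with 33% of the variance, separated the 2 groups. The second, with 14.1%, set apart 6 hours replicate 5 and 1 day replicate 4 at one end and 1 day replicate 5 at the other. Skeletal muscle transcripts varied widely between libraries. In tissue RNA, fewer cells of a type and less RNA per cell cannot be told apart. The summed level of 12 skeletal muscle markers was 241, 778, 524, 195.5 and 8.01 CPM in the mice after 6 hours and 555, 138, 239.5, 261 and 1478 CPM after 1 day. Brown adipocyte markers were high everywhere, with a summed level of 12383 to 14857 CPM after 6 hours and 11294 to 13445 CPM after 1 day.

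Of 10181 genes tested, 936 were higher after 1 day than after 6 hours (9.19%) and 789 were lower (7.75%). These shares are the background against which the counts of each gene group are read. The rise was over 2-fold for 231 of the genes called higher, and the fall was over 2-fold for 133 of those called lower. The median log2 fold change was 0.69 among the called rises, −0.63 among the called falls and −0.0086 over all genes tested. In 12.1% of genes tested the 5 mice of one group did not overlap the 5 of the other. Without the 3 libraries set apart above, 804 genes were higher and 650 lower, a comparison chosen after seeing the data.

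**Figure D1:**
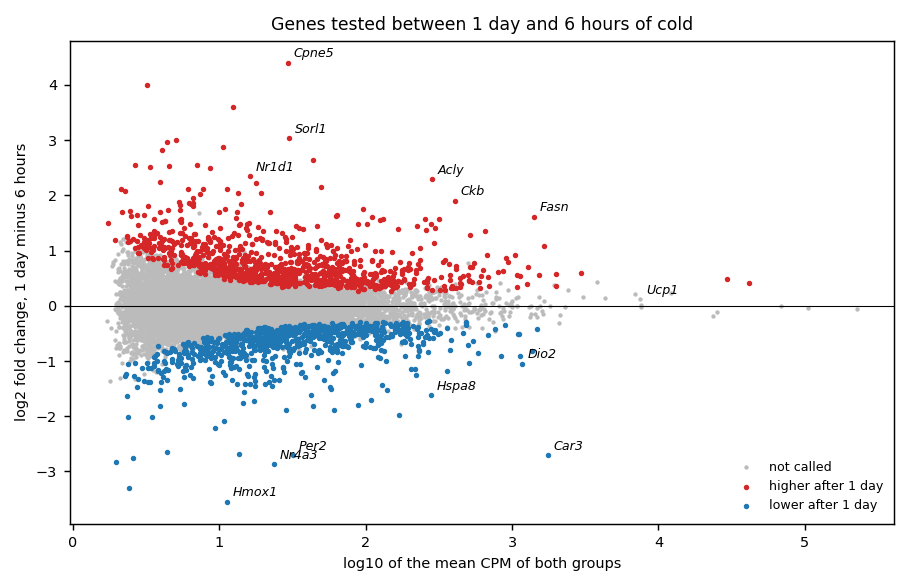
Each point is 1 of the 10181 genes tested, with the log10 of its mean CPM over both groups on the x axis and its log2 fold change on the y axis. Red points (936) were called higher after 1 day, blue points (789) were called lower and grey points were not called, and Car3 stands out as an abundant transcript with a large fall.

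Gene lists differed widely in how many members were called and in which direction. Members of fatty acid synthesis, cholesterol synthesis and adipogenic transcription factors were called only as higher. Members of the antioxidant genes and of ribosome biogenesis were called only as lower.

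**Figure D2:**
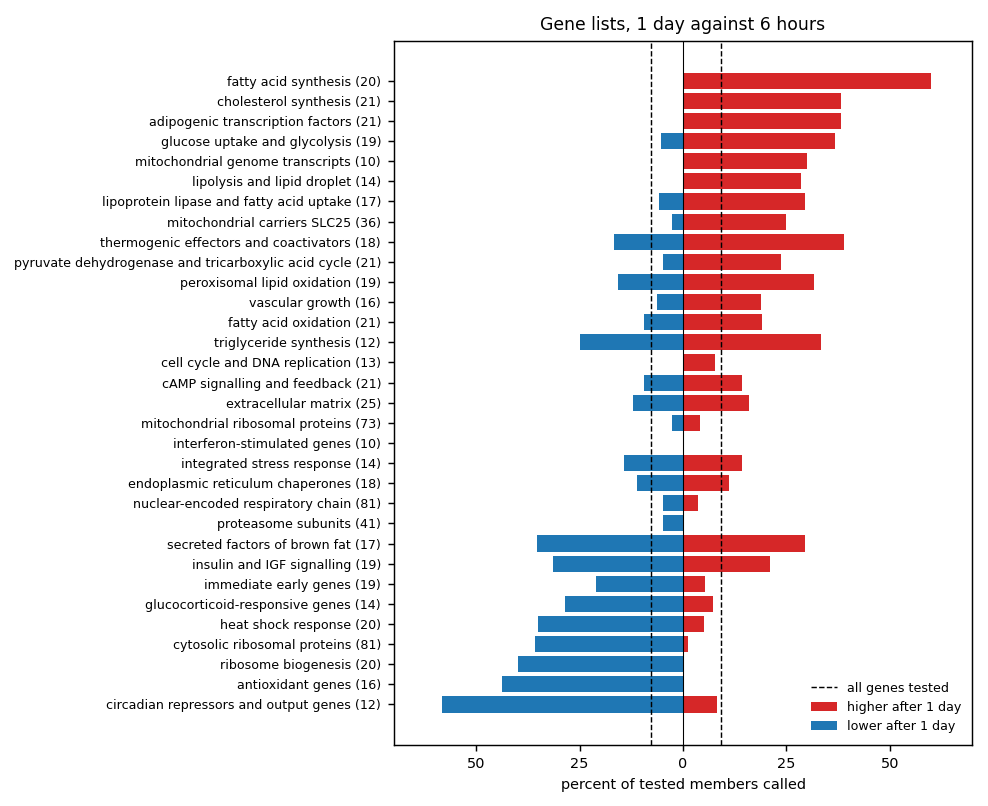
Bars give the percent of tested members called higher (red, to the right) or lower (blue, to the left) after 1 day for each gene list with at least 10 members tested, whose number is in brackets. Dashed lines mark the shares over all genes, 9.19% and 7.75%. Fatty acid synthesis has the longest bar to the right (12 of 20) and the circadian repressors and output genes have the longest to the left (7 of 12).

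The largest falls among abundant genes, taken as the 12 largest log2 fold changes among called genes that averaged 50 counts or more and whose groups did not overlap, included an early nuclear receptor, a clock gene, a heat shock gene and metabolic enzymes. Nr4a3 (chromosome 4, 48045153 to 48086447), an orphan nuclear receptor induced by cyclic AMP, had 15.6, 56.4, 31.7, 59.0 and 45.0 CPM after 6 hours and 5.75, 5.77, 4.13, 4.85 and 8.05 CPM after 1 day. Every mouse after 1 day lay below every mouse after 6 hours, and the log2 fold change was −2.87 (SE 0.29, edgeR adjusted p = 4.2e-06). It had 1.31 ± 1.55 CPM (SD, n = 5) at room temperature. Car3 (chromosome 3, 14863512 to 14872523), the muscle and adipocyte carbonic anhydrase, had 4461, 2680.5, 3057, 2692 and 2342 CPM after 6 hours and 471, 483, 535, 488 and 345 CPM after 1 day. This was a 6.55-fold lower level (log2 fold change −2.71, SE 0.17, edgeR adjusted p = 1.3e-08). In room temperature controls Car3 stood at 6153 ± 265 CPM, so the level after 6 hours lay between those of the controls and of the mice after 1 day. Impdh1, a rate-limiting enzyme of guanine nucleotide synthesis, followed the same order, with 137 ± 53.7 CPM at room temperature, 68.0 ± 2.96 after 6 hours and 19.2 ± 2.52 after 1 day (log2 fold change −1.82, edgeR adjusted p = 1.7e-08).

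Other genes among the 12 were highest after 6 hours. Irs2 (chromosome 8, 10984681 to 11008458), an adaptor of the insulin receptor, had 104, 164, 122, 140.0 and 158 CPM after 6 hours and 54.6, 33.2, 31.6, 37.2 and 40.7 CPM after 1 day, close to the 30.3 ± 19.5 CPM of controls. Its log2 fold change was −1.80 (SE 0.15, edgeR adjusted p = 6.2e-07). The amino acid transporter Slc7a8 showed the same shape, with 14.8 ± 3.76 CPM in controls, 45.4 ± 7.80 after 6 hours and 12.2 ± 1.53 after 1 day (log2 fold change −1.89, edgeR adjusted p = 1.6e-07).

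The water channel Aqp1 had 168 ± 19.8 CPM after 6 hours and 51.0 ± 5.26 after 1 day, a log2 fold change of −1.71 (edgeR adjusted p = 2.3e-08), and 179.7 ± 13.6 at room temperature. The medium-chain acyl-CoA synthetase Acsm3 fell from 23.9 ± 8.11 to 3.60 ± 2.47 CPM (−2.68, edgeR adjusted p = 1.9e-05), and the cytochrome P450 Cyp2e1 from 96.8 ± 36.0 to 25.7 ± 10.5 CPM (−1.90, edgeR adjusted p = 7.6e-05). Mgst3, a microsomal glutathione transferase, fell by 1.76 on the log2 scale (edgeR adjusted p = 0.00171), and 1 of its 5 mice after 1 day, replicate 4, had 0.255 CPM, which is 1 count, while the others had 5.57 to 12.4. Per2 and Hspa8, also among the 12, are described with the clock and the heat shock genes.

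The largest rises by the same rule were led by Cpne5 (chromosome 17, 29155556 to 29238167), which encodes a copine, a calcium-dependent membrane-binding protein. It had 1.56, 0.232, 6.48, 3.07 and 1.82 CPM after 6 hours and 73.9, 45.0, 32.7, 45.4 and 85.4 CPM after 1 day. The log2 fold change was 4.40 (SE 0.38, edgeR adjusted p = 6.2e-07), and as the 6 hours libraries held 1 to 29 counts its size is less certain than its direction. Sorl1 (chromosome 9, 41964720 to 42124297), a sorting receptor of the endosome, rose from 9.91, 4.65, 5.59, 7.08 and 5.83 CPM to 41.6, 60.0, 94.4, 42.6 and 28.3 CPM, an 8.18-fold change (log2 fold change 3.03, SE 0.29, edgeR adjusted p = 1.9e-06). Group means after 2 to 5 days were 26.8 to 45.0 CPM for Cpne5 and 68.6 to 100.5 CPM for Sorl1, against 0.627 and 10.3 CPM in controls.

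Ttc25, which encodes a docking protein of ciliary dynein, rose less evenly between mice. It had 2.09, 0.465, 1.79, 2.12 and 2.73 CPM after 6 hours and 6.31, 48.7, 44.8, 10.7 and 3.91 CPM after 1 day, so that replicates 2 and 3 were far above the other mice (log2 fold change 3.60, SE 0.65, edgeR adjusted p = 9.1e-04). The same 2 mice were the highest for Acly and Fasn, described with the lipid genes. Ttc25 lies beside Acly on chromosome 11, from 100545607 to 100572568 against 100476353 to 100528000, on the opposite strand.

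Mb, which encodes the oxygen-binding protein myoglobin, had 7.30, 17.0, 21.9, 10.6 and 4.19 CPM after 6 hours and 101, 51.5, 78.2, 47.7 and 97.3 CPM after 1 day (log2 fold change 2.64, SE 0.31, edgeR adjusted p = 1.9e-05). Mb is 1 of 11 skeletal muscle markers tested and was the only one called. All 11 had positive log2 fold changes, with a median of 0.53, and the summed level of the 12 listed markers ranged from 8.01 to 778 CPM after 6 hours and from 138 to 1478 CPM after 1 day. The part of muscle tissue in the Mb result was not tested. Without the 3 libraries set apart, the log2 fold change of Mb was 2.43 (edgeR adjusted p = 4.3e-06).

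The other rises of the 12 included enzymes and mitochondrial proteins. Fbp2, the fructose bisphosphatase of muscle, rose from 6.18 ± 1.83 to 29.4 ± 3.99 CPM (log2 fold change 2.23, edgeR adjusted p = 4.6e-07). Fndc5, the precursor of irisin, rose from 4.27 ± 2.45 to 18.4 ± 2.22 CPM (2.11, edgeR adjusted p = 2.9e-05), and Rom1, a tetraspanin known from photoreceptors, from 5.17 ± 1.85 to 21.9 ± 5.28 CPM (2.05, edgeR adjusted p = 9.3e-06). The mitochondrial carrier Slc25a48 rose from 7.50 ± 2.23 to 31.0 ± 11.9 CPM (2.04, edgeR adjusted p = 3.8e-05). Ehhadh, the bifunctional enzyme of peroxisomal β-oxidation, rose from 6.25 ± 2.63 to 22.1 ± 7.33 CPM (1.85, edgeR adjusted p = 1.7e-04).

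**Figure D3:**
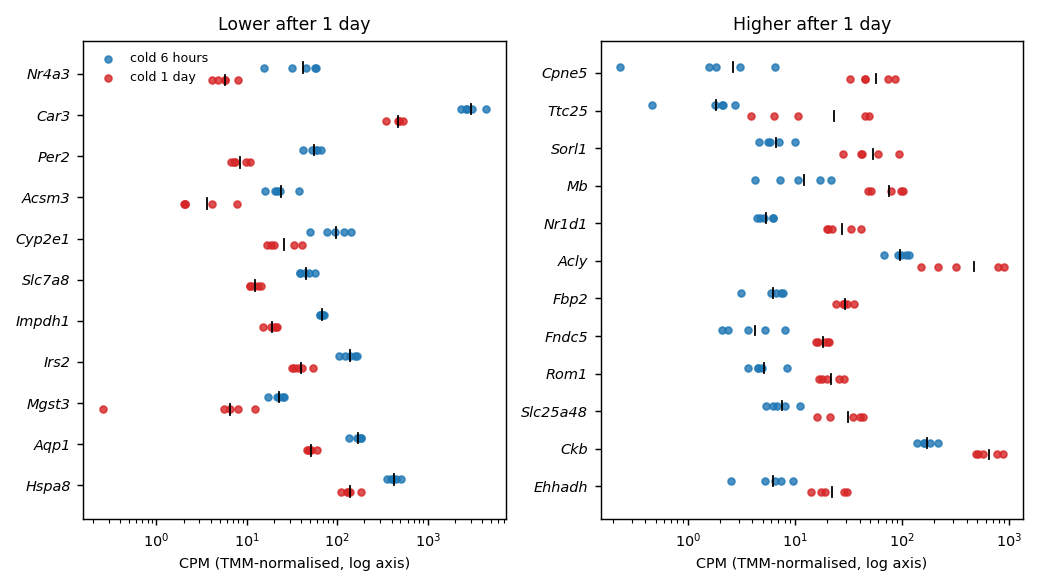
CPM on a log axis in each mouse after 6 hours (blue) and 1 day (red) for 11 of the 12 largest falls, left, and the 12 largest rises, right; black ticks are group means. The groups do not overlap for any of the genes shown, as the rule required, and the spread after 1 day is widest for Ttc25 and Acly among the rises and for Mgst3 among the falls.

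Circadian clock genes were among the most changed. The clock is a feedback loop in which BMAL1 (encoded by Arntl) and CLOCK bind E-boxes and switch on the Per and Cry repressors, the Nr1d1 repressor and output factors such as Dbp, Tef and Hlf. Of 12 repressor and output genes tested, 7 fell and 1 rose, against 7.75% and 9.19% of all genes, with a median log2 fold change of −0.68. Per2 (chromosome 1, 91415982 to 91459324) had 52.1, 59.7, 65.7, 57.6 and 41.5 CPM after 6 hours and 7.24, 10.8, 9.89, 7.40 and 6.67 CPM after 1 day, a 6.53-fold lower level (log2 fold change −2.71, SE 0.16, edgeR adjusted p = 1.3e-08). Tef had 85.5, 91.0, 93.2, 76.7 and 81.1 CPM after 6 hours and 25.2, 26.8, 37.0, 30.4 and 30.4 after 1 day (−1.51, SE 0.12, edgeR adjusted p = 2.6e-07). Per1 had 31.0, 39.7, 28.6, 31.2 and 29.9 CPM against 22.1, 15.0, 17.3, 10.2 and 7.59 (−1.13, SE 0.21, edgeR adjusted p = 0.00107). In these 3 genes no mouse after 1 day reached the lowest mouse after 6 hours. Ciart, another repressor of the loop, was low but also separated, at 4.18 to 7.15 CPM against 0.765 to 2.07 (−2.02, edgeR adjusted p = 1.7e-04), and Hlf fell by 0.62 on the log2 scale (edgeR adjusted p = 0.0139). The falls of Bhlhe41 (−0.74, edgeR adjusted p = 0.0279) and Dbp (−0.76, edgeR adjusted p = 0.0417) were the least certain. The Bhlhe41 call was lost without 6 hours replicate 2 (−0.74), 4 (−0.71) or 5 (−0.72) or 1 day replicate 1 (−0.66) or 2 (−0.63), and with all 7 groups in the edgeR fit (−0.75, adjusted p = 0.105). The Dbp call was lost without 6 hours replicate 2 (−0.80), 3 (−0.56) or 5 (−0.76) or 1 day replicate 1 (−0.64), 2 (−0.73), 3 (−0.69) or 4 (−0.73), and with all 7 groups in the edgeR fit (−0.77, adjusted p = 0.0892).

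Nr1d1 (chromosome 11, 98767932 to 98775333), which encodes REV-ERBα, went the other way. It had 6.26, 6.27, 5.14, 4.72 and 4.37 CPM after 6 hours and 19.9, 33.0, 20.3, 21.9 and 41.0 CPM after 1 day, a 5.08-fold rise (log2 fold change 2.35, SE 0.22, edgeR adjusted p = 1.9e-06). Exons of Nr1d1 overlap exons of Thra, the thyroid hormone receptor gene on the other strand, which rose from 58.0 ± 3.07 to 91.0 ± 20.1 CPM (0.65, edgeR adjusted p = 0.00306). The strand setting of the counting is not given in the sources used here, so reads of these 2 genes may not be fully separated. Among 5 activators and late-phase genes tested, Cry1 fell from 31.2 ± 7.70 to 19.3 ± 3.15 CPM (−0.68, edgeR adjusted p = 0.00729). Arntl had 17.4 ± 3.00 CPM after 6 hours and 12.7 ± 2.38 after 1 day and was not called (−0.45, edgeR adjusted p = 0.0679), against 1.44 ± 0.42 in controls. Dbp had 76.8 ± 17.6 CPM at room temperature, 11.9 ± 3.44 after 6 hours and 7.12 ± 2.80 after 1 day. Its exons overlap exons of Sphk2 on the other strand, so reads of Dbp and Sphk2 may not be fully separated either. The labels give no clock time for the collection of tissue, so the length of cold and the time of day cannot be told apart for any gene reported here.

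**Figure D4:**
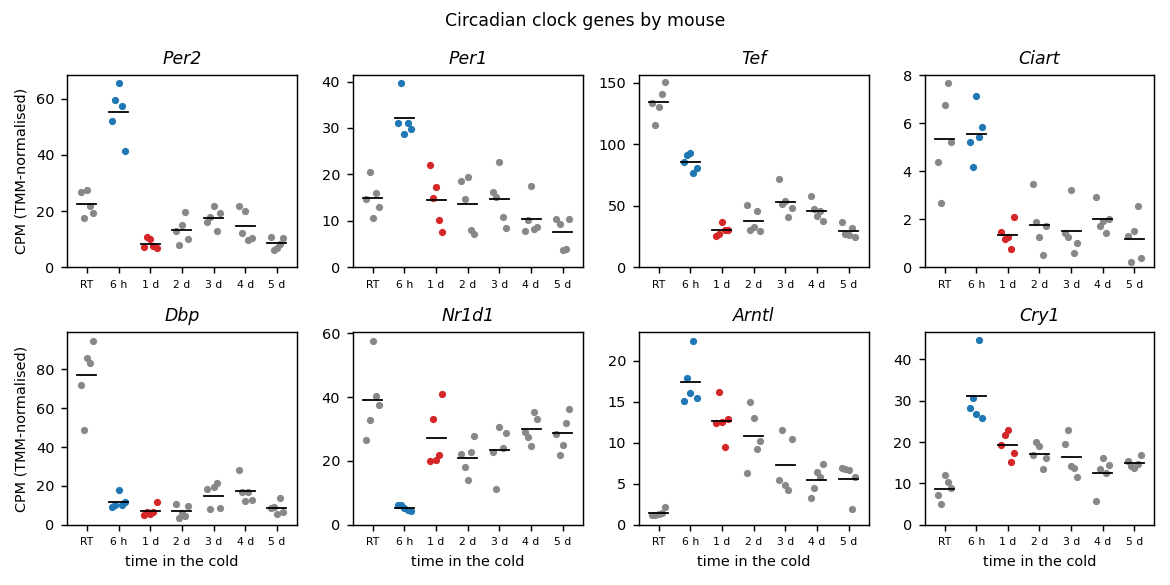
CPM of 8 clock genes in each mouse at room temperature (RT), after 6 hours (blue), after 1 day (red) and after 2 to 5 days; bars are group means of 5 mice. Per2, Per1 and Cry1 have their highest means after 6 hours, Nr1d1 has its lowest mean then, and Tef and Dbp are highest at room temperature.

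The promoters of called clock genes are shown because the E-box is the element that BMAL1 and CLOCK bind. RefSeq windows of 300 bases, from 250 before to 50 after a start site (build GRCm38.p6), were searched for CACGTG, which reads the same on both strands. Of 14 tested clock genes with a window, 5 held the motif, all of them called lower: Bhlhe41, Ciart, Cry1, Per1 and Tef. The motif is in 7.15% of all 32851 windows, in 12.31% of tested genes with a window, in 15.81% of those called lower and in 11.3% of those called higher. Capitals mark the E-box in the following stretches, each written 5′ to 3′ on the strand of the gene. The Per1 stretch comes from the window of a start site inside the gene, which spans 69095217 to 69109960.
Per1, + strand, chr11:69098753-69098818: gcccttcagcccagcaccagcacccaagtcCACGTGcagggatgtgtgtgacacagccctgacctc
Tef, + strand, chr15:81802516-81802581: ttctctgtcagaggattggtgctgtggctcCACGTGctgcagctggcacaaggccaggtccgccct
Ciart, - strand, chr3:95882309-95882374: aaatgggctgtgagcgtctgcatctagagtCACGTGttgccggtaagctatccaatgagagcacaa
Cry1, - strand, chr10:85185079-85185144: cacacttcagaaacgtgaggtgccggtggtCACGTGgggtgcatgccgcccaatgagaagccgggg
The Ciart window holds 2 more E-boxes closer to the start site, the Nr1d1 window had no match, and Per2 had no window in the table. Another Tef window, of a different start site, also holds an E-box (chr15:81811246-81811311). A match is a string of letters and not a measured binding site.

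Immediate early genes switch on within minutes of a stimulus without new protein synthesis. Of 19 immediate early genes tested, 4 fell and 1 rose, against 7.75% and 9.19% of all genes, and the median log2 fold change was −0.23. Besides Nr4a3, its relative Nr4a1 had 23.7, 73.4, 73.5, 98.7 and 50.8 CPM after 6 hours and 23.4, 27.9, 23.7, 3.83 and 24.2 after 1 day (log2 fold change −1.62, SE 0.34, edgeR adjusted p = 0.0036). Replicate 1 after 6 hours lay within the range of the mice after 1 day. Without that mouse, 7 immediate early genes were called lower instead of 4. The AP-1 subunit Fosl2 fell from 51.2 ± 11.2 to 22.5 ± 4.67 CPM (−1.20, edgeR adjusted p = 1.1e-04) and the Krüppel-like factor Klf6 from 68.7 ± 12.2 to 44.1 ± 5.30 CPM (−0.64, edgeR adjusted p = 0.00232). Nr4a2 had 110.8 ± 37.4 CPM after 6 hours and 73.6 ± 12.1 after 1 day and just missed the threshold (edgeR adjusted p = 0.051). Fos and Fosb were below the filter on counts.

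In cyclic AMP signalling and feedback 3 of 21 genes tested rose and 2 fell, near the shares over all genes. Adrb3 (chromosome 8, 27225776 to 27250616), the main β-adrenergic receptor of brown adipocytes, had 22.9, 41.8, 63.0, 59.5 and 34.1 CPM after 6 hours and 169.8, 141, 85.2, 152 and 194 CPM after 1 day, a 3.35-fold rise (log2 fold change 1.75, SE 0.23, edgeR adjusted p = 5.6e-05). It had 94.5 ± 29.0 CPM in controls, so that of these 3 groups the 6 hours group had the lowest mean. The other β-receptor, Adrb1, had 46.9 ± 3.50 and 44.5 ± 4.59 CPM and was not called (−0.076, edgeR adjusted p = 0.687). The phosphodiesterase Pde4a, which degrades cyclic AMP, rose from 53.3 ± 6.53 to 106 ± 9.43 CPM (0.99, edgeR adjusted p = 9.3e-06), and the regulatory kinase subunit Prkar2b also rose (0.53, edgeR adjusted p = 0.00303). Crem, whose short form represses cyclic AMP targets, fell by 1.08 (edgeR adjusted p = 5.0e-04) and the kinase Sik1 fell by 0.93 (edgeR adjusted p = 0.00654) on the log2 scale.

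Of 18 thermogenic genes tested, 7 rose and 3 fell, against 9.19% and 7.75% of all genes. The median log2 fold change was −0.0090, with 9 members positive and 9 negative. Ucp1 (chromosome 8, 83290352 to 83298452) had 6874, 6772, 6621, 6877 and 8938 CPM after 6 hours and 8982, 7906, 7185, 8596 and 6539.7 CPM after 1 day. The groups overlapped and Ucp1 was not called (log2 fold change 0.12, SE 0.12, edgeR adjusted p = 0.548), while both lay above the 1898 ± 605 CPM of controls. Dio2 (chromosome 12, 90724552 to 90738438), the deiodinase that makes active thyroid hormone inside the cell, had 1478, 1629, 1519, 1618 and 1613 CPM after 6 hours and 642, 768, 792, 728 and 863 CPM after 1 day. This 2.07-fold fall (−1.05, SE 0.10, edgeR adjusted p = 2.0e-06) left Dio2 far above the 36.3 ± 30.6 CPM of controls. The coactivator Ppargc1a had 408, 882, 676, 804 and 988 CPM after 6 hours and 731, 306, 269, 377 and 390.1 CPM after 1 day, with replicate 1 the lowest after 6 hours and the highest after 1 day (−0.86, SE 0.24, edgeR adjusted p = 0.0201). Its call was lost without 6 hours replicate 2 (−0.80), 6 hours replicate 5 (−0.73), 1 day replicate 2 (−0.76) or 1 day replicate 3 (−0.74), with DESeq2's Wald test (−0.86, adjusted p = 0.0708) and without the 3 libraries set apart (−0.66, edgeR adjusted p = 0.119). The number of thermogenic genes called lower was 1 instead of 3 without 6 hours replicate 2.

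The rises among thermogenic genes concerned creatine cycling, mitochondrial upkeep and brown fat transcription factors. Ckb (chromosome 12, 111669361 to 111672338), the creatine kinase of the futile creatine cycle, had 138, 159, 217, 183 and 161 CPM after 6 hours and 487, 769, 507, 571 and 872 CPM after 1 day (log2 fold change 1.90, SE 0.16, edgeR adjusted p = 6.2e-07). It peaked at a mean of 792 CPM after 2 days and was back at 256 after 5 days. Alpl, the phosphatase of the same cycle, rose from 7.27 ± 2.44 to 19.9 ± 4.73 CPM (1.47, edgeR adjusted p = 1.8e-04). Letmd1 of the inner mitochondrial membrane (0.51, edgeR adjusted p = 0.00144), the nuclear receptor Esrrg (0.67, edgeR adjusted p = 0.00982) and the determination factor Prdm16 (0.59, edgeR adjusted p = 0.00813) also rose.

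The Dio2 promoter is shown for the cyclic AMP response element TGACGTCA, a palindrome that CREB binds, here in capitals, at 95 bases before the start site on the - strand.
Dio2, - strand, chr12:90739096-90739163: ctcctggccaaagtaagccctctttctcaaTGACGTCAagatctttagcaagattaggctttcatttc
Of 52 tested genes of the immediate early, cyclic AMP, thermogenic and clock output lists with a window, 5 held this element. Among the 23 that were called, 2 held it, Dio2 and Hlf. It is in 1.79% of all windows, in 3.76% of tested genes, in 3.87% of those called lower and in 2.97% of those called higher.

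Heat shock genes encode chaperones that hold or refold unfolded proteins and are driven by heat shock factor 1. Of 20 tested, 7 were lower and 1 was higher, against 7.75% and 9.19% of all genes, and the median log2 fold change was −0.31. Hspa8 (chromosome 9, 40800984 to 40810087), the constitutive chaperone HSC70, had 359.5, 509, 444, 419 and 396 CPM after 6 hours and 110.4, 132, 181, 139 and 127 CPM after 1 day (−1.62, SE 0.13, edgeR adjusted p = 3.5e-07). Controls had 67.1 ± 8.89 CPM. The nucleotide exchange factor Hsph1 fell from 86.0 ± 16.8 to 38.0 ± 4.17 CPM (−1.18, edgeR adjusted p = 2.0e-05), against 9.61 in controls. The co-chaperones Dnaja1 (−0.70, edgeR adjusted p = 0.00186) and Chordc1 (−0.49, edgeR adjusted p = 0.0019) and the mitochondrial chaperonin subunit Hspe1 (−0.56, edgeR adjusted p = 7.2e-04) fell as well. Exons of Hspe1 overlap exons of Hspd1 on the other strand, so reads of this pair may not be fully separated. The co-chaperone Fkbp4 rose (0.65, edgeR adjusted p = 0.00143), and Hsp90aa1 had 292 ± 61.7 and 269 ± 54.8 CPM and was not called (−0.12, edgeR adjusted p = 0.652). Endoplasmic reticulum chaperones (2 higher and 2 lower of 18) and genes of the integrated stress response (2 higher and 2 lower of 14) had as many members higher as lower, and the proteasome had 2 subunits lower and 0 higher of 41.

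The promoter of Hspe1 is shown for the heat shock element, searched as GAANNTTCNNGAA and its reverse complement. The match lies 84 bases before the start site and is in capitals.
Hspe1, + strand, chr1:55088034-55088106: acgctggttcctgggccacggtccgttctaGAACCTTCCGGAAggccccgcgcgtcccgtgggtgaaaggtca
An overlapping match on the other strand begins 5 bases earlier in the same window. Of 16 tested heat shock genes with a window, 4 held the element (Chordc1, Hspd1, Hspe1 and Hsph1). Hspd1 was not called, and of the 7 called genes with a window 3 held the element. It is in 0.60% of all windows and in 0.60% of tested genes, in 1.94% of those called lower (12 genes) and in 0.42% of those called higher (3 genes).

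Of 16 antioxidant genes tested, 7 fell and 0 rose, against 7.75% and 9.19% of all genes, and the median log2 fold change was −0.41. Hmox1, the heme oxygenase that degrades heme, had 24.2, 33.7, 15.9, 17.2 and 13.8 CPM after 6 hours and 0.557, 1.15, 1.44, 2.04 and 3.91 CPM after 1 day, which is 71 to 145 counts against 3 to 17. Its log2 fold change of −3.55 (SE 0.35, edgeR adjusted p = 2.9e-06) returned it close to the 0.924 ± 0.304 CPM of controls. Gpx3, the secreted glutathione peroxidase, fell from 1097 ± 83.5 to 581 ± 60.4 CPM (−0.92, edgeR adjusted p = 1.3e-05), from a level after 6 hours near the 1264 ± 198 CPM of controls. The subunits of the enzyme that starts glutathione synthesis, Gclm (−0.56, edgeR adjusted p = 0.00483) and Gclc (−0.67, edgeR adjusted p = 0.0139), and thioredoxin, Txn1 (−0.85, edgeR adjusted p = 0.00553), fell too. Of 14 glucocorticoid-responsive genes tested, 4 were lower, among them Per1, also counted with the clock genes, and 1 was higher. Tsc22d3, the leucine zipper protein GILZ, fell from 47.9 ± 6.50 to 23.1 ± 2.85 CPM (−1.04, edgeR adjusted p = 2.5e-05). Without 6 hours replicate 2, 2 glucocorticoid-responsive genes were called lower.

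Of 81 cytosolic ribosomal proteins tested, 29 fell and 1, the paralogue Rpl39l, rose, against 7.75% and 9.19% of all genes. The median log2 fold change was −0.35 against −0.0086 for all genes. Rps27 had 154, 162, 166, 143 and 190.5 CPM after 6 hours and 91.9, 119, 81.3, 71.2 and 102 after 1 day (−0.81, SE 0.13, edgeR adjusted p = 3.1e-04). Rpl9 (−0.67, edgeR adjusted p = 5.7e-04), Rpl30 (−0.66, edgeR adjusted p = 0.00146) and Rps16 (−0.80, edgeR adjusted p = 0.00237) fell similarly. The median stayed below 0 under every normalization run. The number called lower was 17 without 6 hours replicate 2, 16 without 6 hours replicate 5, 18 without 1 day replicate 1 and 15 without 1 day replicate 3. These genes have many processed pseudogenes with near-identical sequence, so single values carry that uncertainty. Of 20 genes of ribosome biogenesis, 8 fell, among them the nucleolar protein Ncl (227 to 155 CPM on average, −0.55, edgeR adjusted p = 0.00157) and Gnl3 (−0.56, edgeR adjusted p = 0.00708). That count was 4 without 6 hours replicate 2, 5 without 6 hours replicate 3, 4 without 6 hours replicate 5, 2 without 1 day replicate 1, 4 without 1 day replicate 2, 3 without 1 day replicate 3 and 5 without 1 day replicate 5. Exons of Gnl3 overlap exons of Pbrm1 on the other strand, which averaged 542 counts against 168 for Gnl3, so reads of this pair may not be fully separated.

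Fatty acid synthesis had the largest share of members called higher among the lists plotted. The pathway turns citrate into acetyl-CoA (Acly), malonyl-CoA (Acaca) and palmitate (Fasn), which elongases and desaturases modify. Of 20 genes tested, 12 rose and 0 fell, against 9.19% of all genes called higher, with a median log2 fold change of 0.64. Acly (chromosome 11, 100476353 to 100528000) had 117, 67.1, 98.5, 108 and 91.8 CPM after 6 hours and 218, 885, 788, 319 and 149.6 CPM after 1 day (log2 fold change 2.29, SE 0.37, edgeR adjusted p = 3.5e-04). Fasn (chromosome 11, 120805846 to 120824547) had 752, 364, 943, 786 and 636 CPM after 6 hours and 1313, 3416, 3397, 1846 and 638 CPM after 1 day (1.61, SE 0.34, edgeR adjusted p = 0.00323). Acaca had 159, 101, 201, 184 and 173 CPM against 296, 582, 641, 439.9 and 200.5 (1.40, SE 0.25, edgeR adjusted p = 7.7e-04). In all 3 genes replicates 2 and 3 after 1 day were the highest and replicate 5 was the lowest, and for Fasn and Acaca replicate 5 lay within the range of the 6 hours group.

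Thrsp, a small protein that promotes lipogenesis, had 265 to 488 CPM after 6 hours and 472 to 1350.2 CPM after 1 day (1.36, edgeR adjusted p = 7.4e-04). Srebf1, the transcription factor that drives the pathway, had 12.8 to 23.6 CPM after 6 hours and 42.3, 66.0, 68.0, 14.3 and 62.6 CPM after 1 day, with replicate 4 the low one (1.41, edgeR adjusted p = 0.0024). The elongase Elovl3, used in brown fat for very long chain fatty acids, had 208, 83.6, 189, 145 and 96.9 CPM and then 339, 393, 523, 265 and 354 CPM (1.38, SE 0.22, edgeR adjusted p = 2.8e-04), against 5.79 ± 4.55 in controls. Scd2 rose (1.35, edgeR adjusted p = 0.00519), whereas Scd1, the abundant desaturase, had 2326 ± 404 and 1860.1 ± 447 CPM and was not called (−0.32, edgeR adjusted p = 0.179). Controls had 306 ± 185 CPM of Acly and 1729.7 ± 1102 of Fasn, so that of these 3 groups the 6 hours group had the lowest mean for both.

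In cholesterol synthesis 8 of 21 genes tested were higher and 0 lower, against 9.19% and 7.75% of all genes. The median log2 fold change of the 21 was 0.32. Hmgcs1 (chromosome 13, 119690379 to 119708260), which makes hydroxymethylglutaryl-CoA, had 172, 182, 159, 219 and 184 CPM after 6 hours and 488, 334, 348, 440.1 and 396 CPM after 1 day (1.13, SE 0.12, edgeR adjusted p = 7.0e-06). The mice that were highest for Hmgcs1, replicates 1 and 4, were not those highest for Fasn. The last enzyme, Dhcr7, had 1.56 to 3.31 CPM and 4.37 to 7.37 CPM (1.54, edgeR adjusted p = 8.0e-04). The count of 8 was 5 without 6 hours replicate 1 and 4 without 1 day replicate 3. The Hmgcs1 promoter is shown for the sterol response element, searched as TCACNCCAC on both strands and marked in capitals 137 bases before the start site.
Hmgcs1, + strand, chr13:119690184-119690252: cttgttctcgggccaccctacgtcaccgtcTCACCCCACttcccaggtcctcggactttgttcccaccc
Of 31 tested genes of both synthesis lists with a window, 2 held it, Hmgcs1 and Mlxipl, both among the 17 called. It is in 1.24% of all windows, in 1.42% of tested genes, in 1.98% of those called higher and in 0.32% of those called lower.

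**Figure D5:**
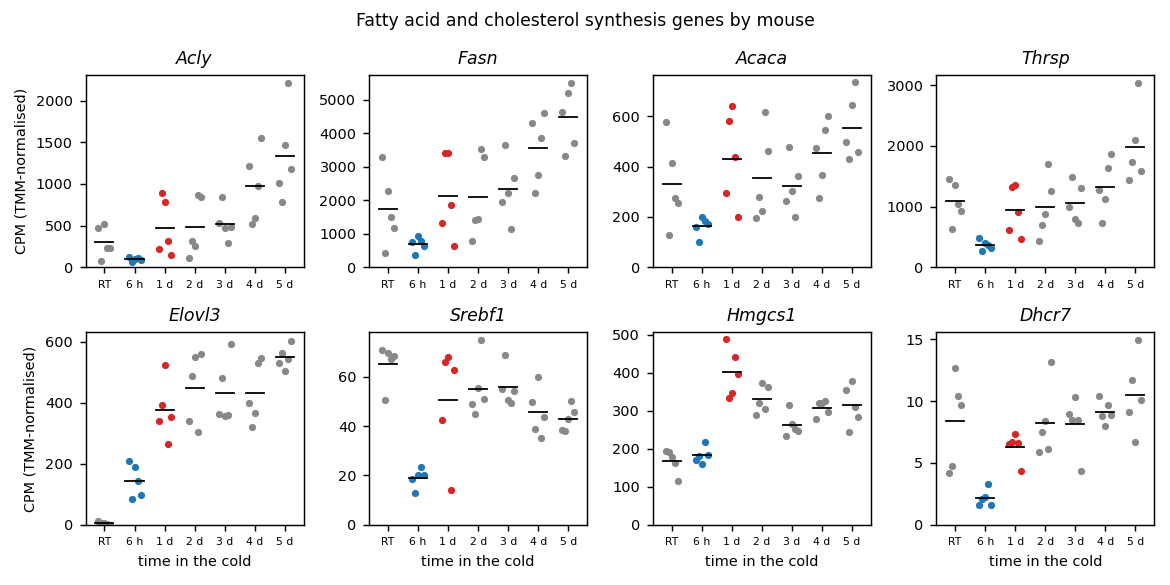
CPM of 6 fatty acid synthesis genes and, in the last 2 panels, the cholesterol synthesis genes Hmgcs1 and Dhcr7 in each mouse, in the order room temperature (RT), 6 hours (blue), 1 day (red) and 2 to 5 days; bars are group means of 5 mice. After 1 day Acly and Fasn spread from 149.6 to 885 and from 638 to 3416 CPM, while Hmgcs1 stays between 334 and 488.

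In lipolysis and the lipid droplet 4 of 14 genes rose and 0 fell, against 9.19% and 7.75% of all genes. Mgll, the last lipase of triglyceride breakdown, had 726, 698, 714, 819 and 634 CPM after 6 hours and 1438, 1355, 1424, 1381 and 1216 CPM after 1 day (log2 fold change 0.93, SE 0.10, edgeR adjusted p = 6.8e-06). The droplet coat protein Plin2 (0.93, edgeR adjusted p = 1.4e-05) and the hormone-sensitive lipase Lipe (0.62, edgeR adjusted p = 0.00138) rose too, while Pnpla2, the adipose triglyceride lipase, had 1421 ± 103 and 1227 ± 267 CPM and was not called (−0.21, edgeR adjusted p = 0.281). In triglyceride synthesis 4 of 12 rose, with Agpat2 (0.71, edgeR adjusted p = 2.0e-04) and Lpin1 (0.70, edgeR adjusted p = 0.00119) in front, and 3 fell. Pck1, which turns oxaloacetate into phosphoenolpyruvate on the way to glycerol 3-phosphate, fell from 1490.1 ± 293 to 791 ± 196 CPM (−0.91, edgeR adjusted p = 8.9e-04). The number of falls in triglyceride synthesis was 1 without 6 hours replicate 1, 2 or 4 or without 1 day replicate 3. Vldlr, which brings lipoproteins to the cell surface, rose from 47.1 ± 11.6 to 131 ± 32.3 CPM (1.48, edgeR adjusted p = 2.1e-05), and the acyl-CoA synthetases Acsl3 (1.12, edgeR adjusted p = 8.7e-05) and Acsl5 (1.49, edgeR adjusted p = 2.6e-04) rose with it.

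Of 21 genes of fatty acid oxidation tested, 4 were higher and 2 lower, against 9.19% and 7.75% of all genes. The median log2 fold change was −0.0040. Cpt1a, the liver form of the carnitine palmitoyltransferase that admits fatty acids to mitochondria, had 4.17, 7.20, 3.80, 10.4 and 5.46 CPM after 6 hours and 20.2, 19.4, 15.5, 16.3 and 29.0 CPM after 1 day (1.69, SE 0.24, edgeR adjusted p = 1.3e-04). Cpt2, the inner membrane partner, rose by 0.47 (edgeR adjusted p = 0.00293). The thiolase Acaa2 (−0.52, edgeR adjusted p = 0.00247) and the isomerase Eci1 (−0.48, edgeR adjusted p = 0.0014) fell. Among 19 genes of peroxisomal lipid oxidation, 6 rose and 3 fell, and the thioesterase Acot5 fell from 12.2, 25.6, 23.0, 38.2 and 32.2 CPM to 5.94, 5.54, 2.34, 9.70 and 17.5 CPM (−1.72, SE 0.36, edgeR adjusted p = 0.00296). The number of peroxisomal rises was 3 without 6 hours replicate 2 or 3 or without 1 day replicate 1 or 5.

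Of 19 genes of glucose uptake and glycolysis tested, 7 were higher and 1 lower, against 9.19% and 7.75% of all genes. The median log2 fold change was 0.25. The insulin-responsive transporter Slc2a4 rose from 147 ± 19.9 to 251 ± 64.8 CPM (0.77, edgeR adjusted p = 0.0021). Gpi1 (0.83, edgeR adjusted p = 7.6e-05), Pfkl (0.64, edgeR adjusted p = 4.6e-04), Pkm (0.77, edgeR adjusted p = 4.7e-04) and Ldha (0.80, edgeR adjusted p = 0.00188), enzymes from the second step of glycolysis to lactate, rose. The exception was Pfkfb3, which makes the activator of phosphofructokinase. It had 750.1, 594, 613, 633 and 679.6 CPM after 6 hours and 369, 459.6, 451, 479 and 350.5 CPM after 1 day (−0.63, SE 0.11, edgeR adjusted p = 8.5e-04), against 217 ± 63.0 in controls. Pdk2, a kinase that inhibits pyruvate dehydrogenase, rose from 103 ± 18.2 to 200.2 ± 24.6 CPM (0.97, edgeR adjusted p = 4.8e-05). Pdk4 of the same family was not called (−0.33, edgeR adjusted p = 0.464), with replicate 4 lowest after 1 day at 55.9 CPM and the other mice at 149 to 249.

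In insulin and IGF signalling 4 of 19 genes were higher and 6 lower, against 9.19% and 7.75% of all genes. Both receptor adaptors fell. Irs1 had 23.2, 17.9, 22.6, 24.3 and 23.5 CPM after 6 hours and 7.42, 10.6, 12.6, 5.61 and 9.67 CPM after 1 day (−1.27, SE 0.18, edgeR adjusted p = 1.3e-04), and, in contrast to Irs2, Irs1 had 20.7 ± 3.70 CPM in controls, near its level after 6 hours. The kinase Akt2, which carries the metabolic arm, rose (0.63, edgeR adjusted p = 0.00154), while Akt1 fell (−0.39, edgeR adjusted p = 0.014). Tbc1d4, a regulator of glucose transporter traffic, rose from 32.4 ± 4.57 to 56.2 ± 5.69 CPM (0.80, edgeR adjusted p = 1.8e-04). Of 21 adipogenic transcription factors tested, 8 rose and 0 fell, with a median log2 fold change of 0.031. Cebpa (0.57, edgeR adjusted p = 0.0055), Ppara (0.61, edgeR adjusted p = 0.00376) and Id2 (0.80, edgeR adjusted p = 7.3e-04) were among them, and Pparg, the master factor of adipocytes, had 168 ± 27.6 and 139 ± 31.9 CPM and was not called (−0.28, edgeR adjusted p = 0.217).

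Of 17 secreted factors of brown fat tested, 5 were higher and 6 lower, against 9.19% and 7.75% of all genes. Adipoq, the adipokine adiponectin, had 780.1, 667, 727, 654 and 607 CPM after 6 hours and 366, 343, 433, 249.5 and 280.5 CPM after 1 day (−1.04, SE 0.13, edgeR adjusted p = 4.3e-05), against 891 ± 96.9 in controls. The complement factor Cfd (−0.83, edgeR adjusted p = 0.00309), the growth factor Igf1 (−0.91, edgeR adjusted p = 0.00113) and the neuregulin Nrg4 (−0.42, edgeR adjusted p = 0.00546) fell. Bmp8b, which sensitizes brown fat to noradrenaline, had 3 to 5 counts in each mouse after 6 hours and 16 to 57 after 1 day (2.83, SE 0.37, edgeR adjusted p = 4.6e-05), and some of its exonic sequence is shared with Ppie on the other strand. Ptgds, a prostaglandin D synthase, had 1 to 7 counts and then 21 to 56 (3.00, SE 0.34, edgeR adjusted p = 1.4e-05). The number of rises in secreted factors was 3 without 6 hours replicate 2, 3, 4 or 5 or without 1 day replicate 5. Cirbp, the cold-inducible RNA-binding protein, rose from 3.88 ± 0.828 to 9.05 ± 2.91 CPM (1.23, edgeR adjusted p = 0.00257), with 15.2 ± 2.44 in controls. Rbm3 of the same family was not called (−0.74, edgeR adjusted p = 0.0808).

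Of 81 nuclear-encoded respiratory chain subunits tested, 3 were higher and 4 lower (median log2 fold change −0.041), and of 73 mitochondrial ribosomal proteins 3 were higher and 2 lower (0.043), fewer than the shares of all genes called. Of 36 mitochondrial carriers of the SLC25 family, which move metabolites across the inner membrane, 9 were higher and 1 lower. Over all genes these shares were 9.19% and 7.75%. Slc25a34 rose from 40.2 ± 7.85 to 79.9 ± 10.0 CPM (1.00, edgeR adjusted p = 6.8e-05) and Slc25a39, which imports glutathione, from 318 ± 23.9 to 438 ± 14.8 CPM (0.46, edgeR adjusted p = 0.00183). Slc25a23, a carrier of adenine nucleotides, fell from 31.6 ± 4.99 to 11.9 ± 4.26 CPM (−1.38, edgeR adjusted p = 1.2e-04).

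The study's own marker genes of the time course were chosen on these mice and their direction is not independent evidence. Of the 6 that it placed among acute genes, 3 fell (Dio2, Nr4a1 and Ppargc1a) and 0 rose. Of its 9 chronic genes 7 rose and 0 fell. Of its 7 delayed genes of proliferation and macrophages, only Lgals3 passed the filter and it was not called (0.75, edgeR adjusted p = 0.234). It had 6.38 to 11.5 CPM after 6 hours and 7.79, 12.5, 3.77, 24.5 and 37.7 CPM after 1 day, so that replicates 4 and 5 were the highest of the 10 mice. Those 6 delayed genes and 4 low-count genes (Il6, Ccl2, Fgf21 and Npas2) were compared by exact two-sided permutation tests over all 252 splits of 5 against 5 mice, and the lowest p was 0.0635 (adjusted p = 0.635 over 10 genes, with 0.00794 the smallest p possible). With a prior of 0.5 instead of 2 counts the lowest p was 0.0476 (adjusted p = 0.476), for Npas2 in both cases. Mki67 had 0 to 6 counts after 6 hours and 2 to 6 after 1 day, and Top2a 5 to 20 and 5 to 18. Of 13 tested genes of the cell cycle, Ccnd1, the cyclin of entry into the cycle, was the one called, rising from 37.6 ± 7.41 to 63.4 ± 14.9 CPM (0.76, edgeR adjusted p = 0.0044).

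C1qa, a complement gene of resident macrophages, had 19.0 ± 2.85 CPM after 6 hours and 19.1 ± 6.67 after 1 day and was not called (−0.0090, edgeR adjusted p = 0.983). The rest of the macrophage list is not reported here, so C1qa does not stand for macrophage markers as a group. Of 10 endothelial markers 1 was higher and 1 lower, of 5 erythroid markers 0 were called, and of 10 interferon-stimulated genes 0 were called. Of 10 stromal cell markers tested 1, Cxcl14, was higher and 2 were lower, against 9.19% and 7.75% of all genes. Among these 10, 9 had negative log2 fold changes, with a median of −0.23. The summed level of the 12 listed stromal markers was 501 to 650 CPM after 6 hours and 460 to 551 CPM after 1 day, so the groups overlapped. The white adipose tissue markers had a summed level of 1392 to 2147 CPM after 6 hours and 786 to 1536 CPM after 1 day. That sum was mostly Cfd, with a mean of 1379 CPM over the 10 libraries, against 47.9 for Retn, the next highest. Of 4 tested, 2 fell, Cfd and Nnat (−1.36, edgeR adjusted p = 0.00421). Cfd is also counted among the secreted factors, and the study uses Nnat to mark early differentiation of brown adipocytes. The part of white fat in these falls was not tested. In the matrix list 4 of 25 genes were higher and 3 lower, against 9.19% and 7.75% of all genes. With 1 mouse left out these counts were 1 to 4 and 3 to 6. The chemokine Cxcl12 rose from 30.7 ± 6.92 to 61.4 ± 8.12 CPM (0.99, edgeR adjusted p = 1.7e-04) and Cxcl14 by 0.72 on the log2 scale (edgeR adjusted p = 0.00647), with 15 of the 24 listed cytokine genes below the filter, Il6 with 0 counts in all 10 libraries.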

How the data were processed

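The authors deposited raw counts of reads per gene, in whole numbers and without normalization, for 35 iBAT libraries made with the QuantSeq 3′ FWD kit. The submitters' processing notes name STAR 2.6.1d, HTSeq 0.11.2 and GRCm38. The strand setting is not given in the sources used here. Symbols and positions came from GENCODE M21 (GRCm38), and promoter windows from RefSeq. Columns were matched to mice by group and replicate number.

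The 5 libraries of each of the 2 groups were fitted with edgeR 4.0.16 in R 4.3.3 (TMM, filterByExpr, quasi-likelihood test, Benjamini-Hochberg adjustment over all genes tested). The standard error (SE) is the log2 fold change divided by the root of the F statistic. At this depth, 71 of 91 genes simulated with a log2 change of 1 and 102 of 103 with a change of 2 were recovered, with 9 false calls among 10001 genes. The simulation changed far fewer genes than the 1725 called in the data, and false calls grow with the number of calls. The 9 therefore do not measure false calls among the 1725. Named genes are the 12 largest rises and falls (above), called members of each list with the smallest p and those that define it by role, the study's labelled genes and abundant called genes. Some named genes are not reported here. Members and lists were chosen with earlier results of these data known. Some genes are in more than 1 list and are counted in each. Replicates are libraries that the labels list as separate samples.

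Alternatives were RLE or no scaling factors, leaving out mitochondrial genes and Gm42418, DESeq2 1.42.0, other count filters (a total of 10 or a mean of 50), a fit over all 7 groups, the removal of each mouse in turn and a block for the replicate number. Same-numbered mice did not deviate together (r between −0.245 and 0.09), so numbers were not used as pairs.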

Additional observations from a re-analysis of the deposited data

Results flagged for a closer look

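Of 82 groups of 5 values examined (37 genes and the library measures), 5 held 1 mouse whose gap to the nearest other mouse, divided by the range of the group, exceeded Dixon's critical value of 0.71. Chance alone flags about 1 in 20 such groups. After 6 hours, replicate 5 had 8938 CPM of Ucp1 against 6621 to 6877 in the other mice, and 8.38 CPM of Rom1 against 3.65 to 4.88. That library also had the lowest summed skeletal muscle markers. After 1 day, replicate 4 had 3.83 CPM of Nr4a1 against 23.4 to 27.9. Replicate 1 had 731 CPM of Ppargc1a against 269 to 390.1, and 96.9 CPM of Slc25a34 against 71.7 to 78.9. The cause was not tested.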

How the results depend on the processing

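The numbers of genes higher and lower were 940 and 783 with RLE size factors, 768 and 777 with library sizes alone, 929 and 794 without mitochondrial genes and Gm42418, 879 and 783 with DESeq2, 795 and 712 when the filter asked for 10 counts in total, 746 and 649 when it asked for 50 counts on average, 984 and 865 with all 7 groups in one fit, and 676 to 867 and 583 to 744 when 1 mouse was left out. With library sizes alone 49.7% of calls were higher, against 54.3%. Under the filter of 50 counts, 4 cholesterol synthesis genes were higher and 4 circadian repressor and output genes were lower, since fewer members were tested. Leaving out 1 mouse gave 4 to 7 immediate early genes lower, 4 to 8 cholesterol synthesis genes higher, 2 to 8 ribosome biogenesis genes lower and 15 to 30 cytosolic ribosomal protein genes lower. Of 207 called genes examined one by one, 147 stayed called under every alternative, 60 were lost under at least 1 and 0 changed direction. These 207 are named genes, chosen in large part for their results in the main fit, so they do not stand for all called genes. Among genes not called, Acad11 changed sign without 1 day replicate 5 (−0.039, with values up to 0.23 without other mice) and Lgals3 without the 3 libraries set apart (−0.29). The cause was not tested.

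Replicate numbers are shared by both groups, but 1 of 5 mice was most like the mouse of its own number, so the numbers were not taken to pair mice. A replicate block gave 746 genes higher and 653 lower. Depth limited calls among low genes: 10181 of 55421 identifiers had enough counts to be tested.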
